A study of Mus musculus with 6 samples.

Results

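Lysosomal enzymes and membrane proteins were followed in 3T3 cells, a mouse fibroblast line derived from embryos, after treatment with a GapmeR against the long non-coding RNA Ntep. The 41 genes examined were chosen by name: 7 lysosomal membrane proteins, 11 cathepsins and other proteases, 10 glycosidases and sulfatases, 6 lipid-handling enzymes and cofactors, 5 subunits of the proton pump (V-ATPase) and 2 transcription factors. Of the 22772 genes named on the arrays, 39 of the 41 carried a probe under their own symbol, and Tfeb and Tfe3 were found under their older symbols Tcfeb and Tcfe3. Together they had 55 of the 55681 probes.

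Lysosomes are acidic organelles in which proteases, glycosidases, sulfatases and lipases break down macromolecules delivered by endocytosis and autophagy. The V-ATPase acidifies the lumen, heavily glycosylated membrane proteins such as Lamp1 and Lamp2 line the limiting membrane, and transporters and channels return the products to the cytosol. Tfeb and Tfe3 are transcription factors that switch on many lysosomal genes by binding an E-box sequence in their promoters, and the kinase mTORC1 on the lysosome surface holds both factors in the cytosol when nutrients are plentiful.

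A GapmeR is an antisense oligonucleotide that recruits RNase H to cut its target RNA. Cultures of 3T3 cells received 50 nM of GapmeR Ntep or of GapmeR control for 48 h (a supplementary list of the study words the dose differently), in 3 independent experiments with 1 culture per GapmeR. All 6 cultures were of the same line, and a single GapmeR sequence against Ntep was profiled. RNA of each culture was hybridised to an Agilent mouse array in 1 color, all arrays on 1 slide.

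Between 43.7% and 53.3% of the probes on an array were well above background, and none was saturated. The number of arrays, 3 per label, limits the precision. The probe for Ntep (A630089N07Rik in the files) read 271.4, 272.4 and 361.2 in the control cultures of experiments 1, 2 and 3, and 471.9, 91.5 and 226.2 in the cultures labelled GapmeR Ntep. In experiment 1 it therefore went against its label, and over the 3 experiments its log2 difference of -0.48 did not pass the test (adjusted p = 0.632). Array GapmeR Ntep 2 correlated with the control arrays about as well (mean r 0.972) as with the other arrays of its own label (0.971). The labels are kept as given. The genes that passed the unpaired test after adjustment are shown without experiment 1 as well, as are a few others.

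Of 12 fibroblast markers, 10 were tested and 0 passed after adjustment. At an unadjusted p under 0.05, 2 were lower and 0 higher, where 15.1% and 12.9% of all genes were. The 10 had a median log2 difference of -0.59, with 9 below and 1 above 0, where the median of all genes was 0. With arrays scaled to their 75th percentile, these medians were -0.36 and 0.15. The intensities of the 12 summed to between 555833 and 737685 on the GapmeR Ntep arrays and to between 808745 and 892159 on the control arrays, with Fap at the floor of 20 on all 6. Lysosomal genes are also prominent in macrophages, so macrophage markers were read as well. Adgre1, Ptprc, Fcgr1, Mrc1, Cx3cr1 and Tyrobp were well above background on 0 of the 6 arrays. Itgam, Aif1, Csf1r and Cd14 were on all 6, Lyz2 on 3 and Laptm5 on 1. Of the 12 markers in that list, 6 were tested and 0 passed after adjustment. At an unadjusted p under 0.05, 3 were higher and 0 lower, beside 12.9% and 15.1% of all genes. A fit that pairs the arrays of an experiment called 16% of all genes. In that fit, Cd14 (adjusted p = 0.0332), Itgam (0.0397) and Csf1r (0.0387) passed as higher and Aif1 (0.0421) as lower. Of the fibroblast markers, Dcn, well above background on 4 of the 6 arrays, passed as lower (0.0310). The macrophage list summed to between 31842 and 63600 on the GapmeR Ntep arrays and to between 16598 and 22812 on the control arrays. Without its brightest genes Itgam, Cd14 and Csf1r, it summed to 420 to 759 against 568 to 1561. The Itgam probe, the brightest of the list, read nearly the same on every array as those of Idua and Slc17a5, given below. The part of either list in the differences described here was not tested. In RNA of whole cultures, fewer cells of a kind and less RNA per cell cannot be told apart.

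Transcripts of 3 lysosomal proteins fell in the cultures labelled GapmeR Ntep: cathepsin S (Ctss), cathepsin A (Ctsa) and the membrane protein Scarb2. Of the 39 genes tested, these 3 fell after adjustment and 0 rose (limma, Benjamini-Hochberg over all probes). Ctss is counted although it was not well above background on any GapmeR Ntep array. It passed the filter on dim probes (a mean of 50 in the brighter group) through the control arrays, and its p rests on values near the floor. Over all 15128 genes tested, 6% passed in either direction, 2.33% higher and 3.67% lower. At the limits of the study, a p under 0.01 before adjustment with a change of 2-fold or more, 4 members were lower (the same genes and Npc2) and 0 higher. Of all genes, 9.11% passed these limits, 5.92% lower and 3.19% higher. The median log2 difference of the members was -0.13, beside 0 over all genes. Both the share of genes called and the share of genes whose 2 groups of arrays did not overlap (16 of 39 members, 36.2% of all genes) were near those of the array as a whole.

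With Benjamini-Hochberg adjustment removed, 4 members were higher and 9 lower at a p under 0.05, where 12.9% and 15.1% of all genes were (28% in all). A log2 difference of at least 0.5 in size was seen for 18 of the 39, and 43.9% of all genes had one. The differences therefore ran in both directions within the organelle, with 15 members above and 24 below 0, where 50.1% of all genes were above. That split depended on the scaling: with arrays scaled to their 75th percentile it was 19 to 20, and the median of the members was -0.01 where that of all genes was 0.15. When the arrays of an experiment were compared as pairs, 7 members passed, all lower (Ctss, Ctsa, Scarb2, Npc2, Tcirg1, Lamp2 and Arsb), in a fit that called 16% of all genes.

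**Figure D1:**
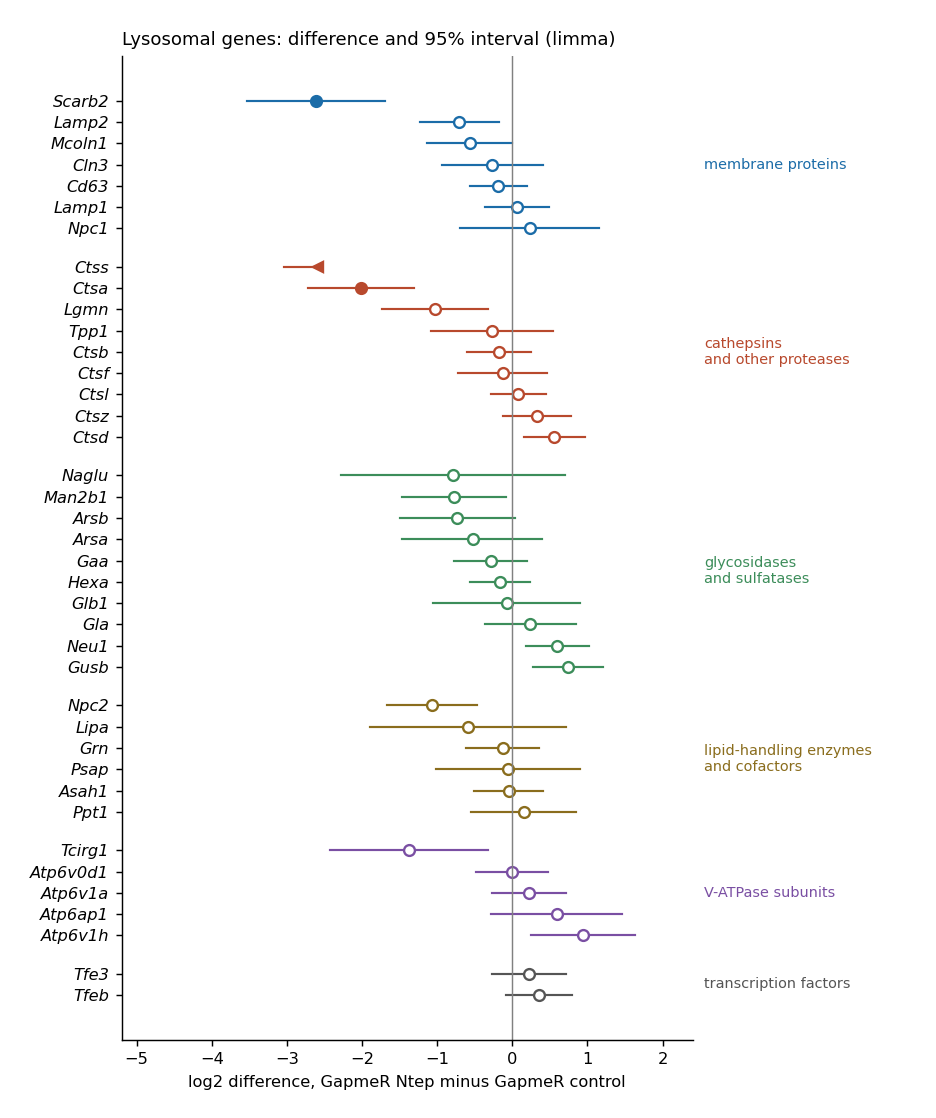
Log2 difference (horizontal axis, GapmeR Ntep minus GapmeR control) of the 39 tested lysosomal genes, grouped by role, with the 95% interval of the unpaired limma fit as a line. The triangle for Ctss stands at its bound (-2.59), and its line only points to the side on which the difference lies. Filled symbols passed at an adjusted p under 0.05: Scarb2 (-2.61), Ctss and Ctsa (-2.02), all to the left of 0, while the other 36 points are open and lie on both sides.

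Ctss, a cysteine protease best known for trimming the invariant chain in antigen-presenting cells, has only a bound for its level after GapmeR Ntep. Its intensity was 20, 25.9 and 23.4 on the GapmeR Ntep arrays of experiments 1 to 3 and 217.4, 350.1 and 350.1 on the control arrays. Every control array was high and every GapmeR Ntep array was near the floor of 20, with no overlap. The probe (chr3:95360245-95360304 in mm9) was not well above background on any GapmeR Ntep array, and it passed the filter on dim probes through the control arrays. Set against the lowest signal well above background there, cathepsin S was at least 6.02-fold lower (measured means 23.1 and 305.9, adjusted p = 0.0157 by limma and 0.0310 in the paired fit). With normexp, where an offset of 50 was added to the values, the fitted log2 difference was -1.44 (adjusted p = 0.0165).

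Ctsa is a serine carboxypeptidase that also shields the sialidase Neu1 and the beta-galactosidase Glb1 in a complex. Its brighter probe (chr2:164665023-164665082 in mm9) read 9290, 19169 and 12706 after GapmeR Ntep and 53860, 56332 and 49561 after GapmeR control. The dimmer probe read 50.3, 75.9 and 41.2 against 302.2, 225.8 and 199.3. On both probes the lowest control array exceeded the highest GapmeR Ntep array, but the dimmer one was well above background on only 1 of the 3 GapmeR Ntep arrays (3 of 3 control arrays). The log2 difference of the brighter probe was -2.02 ± 0.29 (SE, n = 3 arrays per label; adjusted p = 0.0287 by limma, 4.05-fold lower). That of the dimmer probe, -2.15 (adjusted p = 0.0276), rests on values near background. Its partners in the complex did not follow it past the test: Neu1 had a log2 difference of 0.60 (adjusted p = 0.0994) and Glb1 of -0.07 (adjusted p = 0.926).

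Scarb2 (LIMP-2) is an abundant glycoprotein of the lysosomal membrane. Its probe, which maps to chr5:92877611-92878944 in mm9, gave 338.2, 818.6 and 805.1 on the GapmeR Ntep arrays and 3832, 3874 and 3447 on the control arrays. The control arrays were alike, and experiment 1 had the lowest GapmeR Ntep value. The log2 difference was -2.61 ± 0.37 (adjusted p = 0.0287 by limma, 6.12-fold lower).

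Without experiment 1, Ctss and Scarb2 (-2.15) passed with an adjusted p of 0.0455 each, and Ctsa was at -1.74 with an adjusted p of 0.0587. Leaving out GapmeR control 2, GapmeR control 3 or GapmeR Ntep 3 ended all 3, with an adjusted p of 0.0651 to 0.133, and leaving out GapmeR control 1 kept Ctss alone (Ctsa 0.0641, Scarb2 0.0659).

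**Figure D2:**
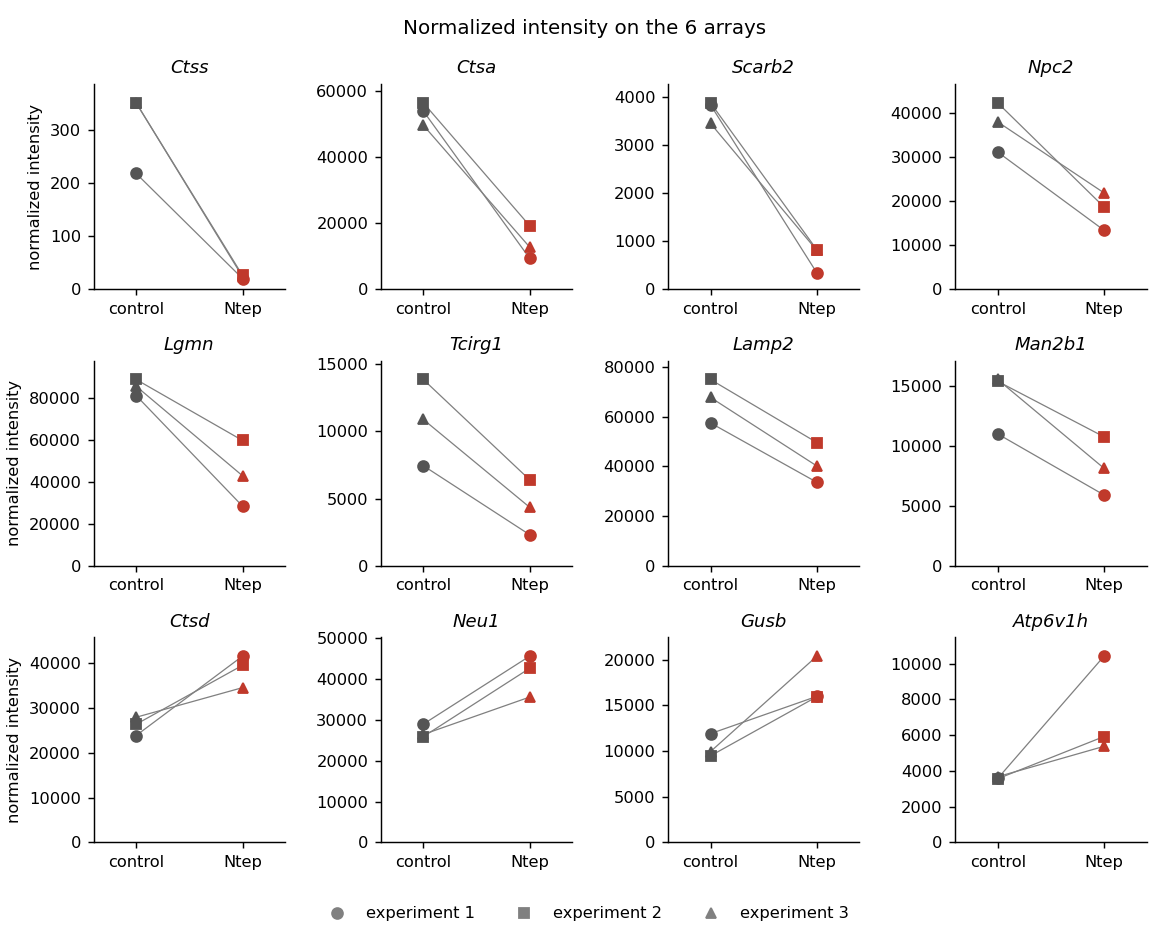
Normalized intensity (vertical axis, linear and starting at 0) of 12 lysosomal genes on the 6 arrays, with grey points for GapmeR control, red points for GapmeR Ntep and a line joining the arrays of an experiment. The lines of Ctss, Ctsa, Scarb2, Npc2, Lgmn, Tcirg1, Lamp2 and Man2b1 run down in all 3 experiments, and those of Ctsd, Neu1, Gusb and Atp6v1h run up; of these 12 genes, Ctss, Ctsa and Scarb2 passed after adjustment.

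To show what the promoters of the genes that fell hold, the 250 bases before the RefSeq start of each are given here (RefSeq, GRCm38.p6), 5′ to 3′ on the strand of the gene, with capitals at letters searched for. In Ctsa they mark the palindrome TCACGTGA, a form of the E-box that Tfeb and Tfe3 bind. In Ctss they mark a pair of GAAA words with 2 bases of any kind between them, a spacing known from interferon response elements. Scarb2 held neither. The windows lie at chr2:164833523-164833772 (plus strand), chr3:95526536-95526785 (plus strand) and chr5:92505658-92505907 (minus strand).
Ctsa: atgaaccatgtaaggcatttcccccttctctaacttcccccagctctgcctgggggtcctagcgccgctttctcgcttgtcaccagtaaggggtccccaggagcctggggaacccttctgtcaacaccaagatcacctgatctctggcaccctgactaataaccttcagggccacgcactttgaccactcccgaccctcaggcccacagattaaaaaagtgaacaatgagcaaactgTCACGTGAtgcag
Ctss: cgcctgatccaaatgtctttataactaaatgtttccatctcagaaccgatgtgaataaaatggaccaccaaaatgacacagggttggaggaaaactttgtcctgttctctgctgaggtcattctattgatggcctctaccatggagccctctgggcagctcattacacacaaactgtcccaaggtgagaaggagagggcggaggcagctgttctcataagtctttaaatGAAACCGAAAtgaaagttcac
Scarb2: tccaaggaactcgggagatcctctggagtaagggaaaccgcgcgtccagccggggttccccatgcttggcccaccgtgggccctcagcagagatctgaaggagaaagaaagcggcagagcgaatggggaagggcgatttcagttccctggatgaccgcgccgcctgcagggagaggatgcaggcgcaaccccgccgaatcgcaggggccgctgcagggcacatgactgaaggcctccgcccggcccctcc

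Among the other membrane proteins, Lamp2 read 33581, 49567 and 40134 after GapmeR Ntep and 57462, 74935 and 67726 after GapmeR control. The groups did not overlap, the log2 difference was -0.71 (adjusted p = 0.112 by limma), and the paired fit gave an adjusted p of 0.0478. A second Lamp2 probe, listed under another transcript of the gene, differed by -0.18. Mcoln1, the calcium channel TRPML1, read 9165, 13777 and 8328 against 14756, 15181 and 15452, lower on each array labelled GapmeR Ntep, with a log2 difference of -0.57 (adjusted p = 0.196). The remaining membrane proteins lay closer to 0: Cd63 (-0.19), Lamp1 (0.06), the cholesterol transporter Npc1 (0.23) and Cln3 (-0.27), with adjusted p of 0.489 to 0.860.

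Cln3, the gene of juvenile Batten disease, had probes that disagreed. The brightest and a second probe differed by -0.27 and -0.03, while the dimmest read 20, 49.2 and 20 on the GapmeR Ntep arrays and 207, 112.2 and 82.6 on the control arrays. That probe was well above background on 1 of the 3 GapmeR Ntep arrays and on 3 of 3 control arrays, and it passed the filter on dim probes through the latter. Its fitted difference of -2.20 did not pass (adjusted p = 0.0595 by limma).

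Of the cysteine cathepsins of general protein turnover, Ctsb differed by -0.18, Ctsl by 0.08 and Ctsz by 0.33, none past the test (adjusted p of 0.318 to 0.755). Ctsd, the main aspartic protease of the lysosome, read 41622, 39571 and 34579 on the GapmeR Ntep arrays and 23883, 26397 and 27963 on the control arrays. All GapmeR Ntep arrays were the higher ones, but the log2 difference of 0.56 ± 0.17 had an adjusted p of 0.106 by limma, and that of its dimmer probe was 0.77.

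Lgmn (legumain), which cleaves after asparagine and processes other cathepsins, read 28364, 59602 and 42809 against 80960, 88596 and 85391. Its groups did not overlap, and the log2 difference was -1.03 ± 0.29 (adjusted p = 0.0964 by limma, 0.0604 paired). Tpp1, a tripeptidyl peptidase, differed by -0.27. Ctsf, well above background on 1 of 3 arrays per label, differed by -0.13. Ctsc and Ctsh were well above background on 0 of the 6 arrays and were not tested.

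The glycosidases and sulfatases, which take sugars and sulfate groups off glycans and glycolipids, had 0 of 10 members past the test. At an unadjusted p under 0.05 there were 3 (Gusb, Neu1 and Man2b1), a share near the 28% of all genes. Some of the 10 were higher and others lower. The sialidase Neu1 read 45598, 42627 and 35579 after GapmeR Ntep and 28954, 25888 and 26425 after GapmeR control, with all GapmeR Ntep arrays above all control arrays. Its log2 difference was 0.60 ± 0.17 (adjusted p = 0.0994 by limma).

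Gusb, the beta-glucuronidase that acts on glycosaminoglycans, read 15998, 15958 and 20404 against 11911, 9480 and 9944 on its brightest probe, again without overlap (0.74 ± 0.19, adjusted p = 0.0794). Its other probe, in a different position, differed by 0.08, so the probes of this gene disagreed in size. The other probe was the brighter one with normexp (0.07), without GapmeR Ntep 3 (0.05) and without GapmeR Ntep 1 (0.21).

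Man2b1, the lysosomal alpha-mannosidase, read 5911, 10765 and 8137 against 11009, 15400 and 15553. It was lower on every array labelled GapmeR Ntep, with a log2 difference of -0.78 (adjusted p = 0.158 by limma). Arsb, which removes sulfate from dermatan and chondroitin sulfate, read 220.8, 400.6 and 349.8 against 385.6, 591.4 and 624.2. The groups overlapped by a small margin and the log2 difference was -0.73 (adjusted p = 0.213, and 0.0490 in the paired fit). Its dimmer probe differed by -0.43 without overlap and passed in neither fit (adjusted p = 0.221 by limma and 0.125 in the paired fit).

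In Naglu and Arsa the arrays of an experiment moved together. Naglu, an enzyme of heparan sulfate breakdown, read 500.5, 1596 and 1076 against 777.4, 2428 and 2349, with both arrays of experiment 1 the lowest of their label (-0.79, adjusted p = 0.465). Arsa, the sulfatase that acts on sulfatide, read 13725, 22573 and 18993 against 15430, 36279 and 31755 in the same pattern (-0.53, adjusted p = 0.434). The alpha-glucosidase Gaa (-0.29), the alpha-galactosidase Gla (0.24), Hexa (-0.16) and Glb1 lay within 0.3 of 0.

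Npc2, the soluble protein that hands cholesterol to Npc1 in the lysosome, was the lowest of the lipid-handling genes. It read 13377, 18655 and 21872 on the GapmeR Ntep arrays and 31160, 42335 and 38017 on the control arrays. Each control array lay above each GapmeR Ntep array, and the log2 difference of -1.07 ± 0.25 corresponded to a level 2.09-fold lower (adjusted p = 0.0633 by limma and 0.0368 in the paired fit). Lipa, the acid lipase that frees cholesterol from its esters, read 1376, 3531 and 2909 against 1877, 5460 and 4663, lower within each experiment but overlapping between labels (-0.59, adjusted p = 0.523). The ceramidase Asah1 (-0.05), the saposin precursor Psap (-0.06), the thioesterase Ppt1 (0.15) and progranulin (Grn, -0.13) had adjusted p of 0.706 to 0.939.

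The V-ATPase subunits were mixed. Tcirg1, the membrane subunit a3 that is abundant in osteoclasts, read 2306, 6390 and 4348 after GapmeR Ntep and 7442, 13852 and 10881 after GapmeR control. The values did not overlap and the log2 difference was -1.38 ± 0.43, with an adjusted p of 0.119 by limma and of 0.0337 in the paired fit. Experiment 1 was the lowest and experiment 2 the highest under both labels.

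Atp6v1h, a regulatory subunit of the cytosolic part, read 10421, 5923 and 5375 against 3576, 3560 and 3674. All GapmeR Ntep arrays were higher, experiment 1 the most, and the log2 difference of 0.94 ± 0.28 was the highest of the 39 members (adjusted p = 0.108 by limma). Without experiment 1 the difference was 0.63 (adjusted p = 0.0899 by limma). Atp6ap1, an accessory subunit of the pump, read 6288, 5841 and 2775 against 3658, 3069 and 2664 on its brighter probe (0.59, adjusted p = 0.355). Its groups overlapped through experiment 3. The dimmer probe read 4452, 4278 and 3334 against 2667, 1978 and 1748 without overlap (0.93, adjusted p = 0.0736, and 0.0397 in the paired fit). Atp6v1a (0.22) and Atp6v0d1 (0.00) were near 0.

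The regulators Tfeb and Tfe3 did not pass. Tfeb read 271, 320.1 and 270.6 on the GapmeR Ntep arrays and 195.5, 238.3 and 240.5 on the control arrays, higher without overlap (0.36, adjusted p = 0.275 by limma). Tfe3 differed by 0.22 on its brighter probe (adjusted p = 0.520) and by 0.52 on its dimmer one. These are transcript levels, and the movement of the proteins to the nucleus was not measured.

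**Figure D3:**
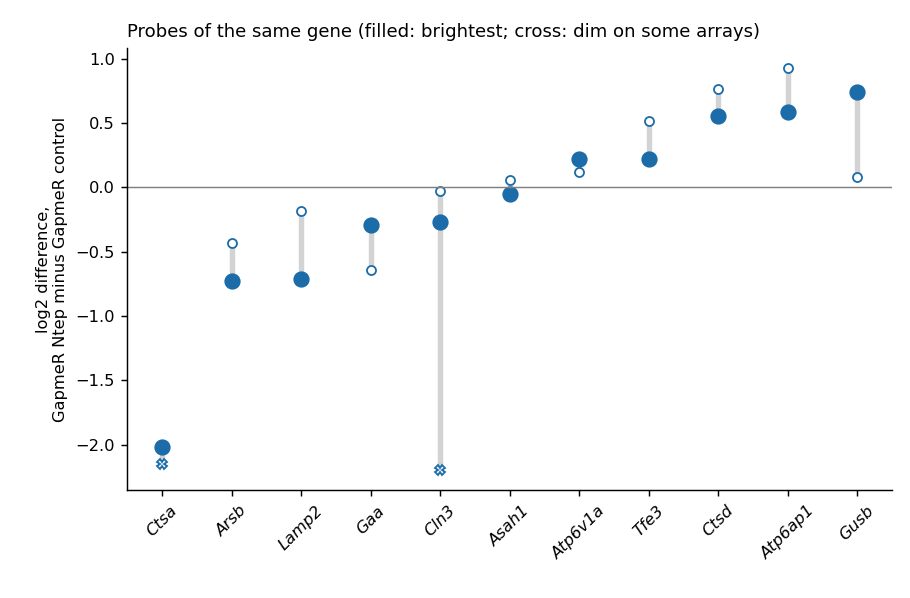
Log2 difference (vertical axis, GapmeR Ntep minus GapmeR control) of every tested probe of the 11 lysosomal genes that had more than 1, with a filled point for the brightest probe, open points for the others and crosses for probes well above background on only some arrays. The Ctsa probes lie at -2.02 and -2.15 (a cross), while those of Cln3 (-0.27, -0.03 and a cross at -2.20), Lamp2 (-0.71 and -0.18) and Gusb (0.74 and 0.08) lie apart.

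The letters that Tfeb and Tfe3 are known to bind were counted in windows of 300 bases, 250 before and 50 after each RefSeq start, which 36 of the 41 members had (45 windows, with a gene counted where any of its windows matched). CACGTG, the core of the E-box, was present in 15 of them (41.7%), and in 8.09% of 27025 genes. TCACGTG on either strand, which contains that core, was found in 13 (36.1%, beside 4.29% of all genes). The full palindrome TCACGTGA, which contains both, was found in 7 (19.4%, beside 1.12%). The spaced GAAA pair on either strand was found in 3 (Ctss, Lamp1 and Tcirg1; 8.33%, beside 3.99%). A match of letters is a description of the window, not evidence of binding.

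The genes with the palindrome are shown with 20 bases on each side of the match nearest the start, because they share the same letters and differed in direction. Capitals mark TCACGTGA, except in Lamp1, which is added for its 4 matches of TCACGTG on either strand. The Ctsa match is in the window printed above, and a second one lies just after its start. All sequences are RefSeq, GRCm38.p6, on the strand of the gene: Ctsd at chr7:142387899-142387946, Gla at chrX:134601173-134601220, Atp6v1a at chr16:44139364-44139411, Atp6v0d1 at chr8:105566041-105566088 and Cln3 at chr7:126583331-126583378 (all minus strand), and Mcoln1 at chr8:3500453-3500500 and Lamp1 at chr8:13159094-13159156 (both plus strand).
Ctsd: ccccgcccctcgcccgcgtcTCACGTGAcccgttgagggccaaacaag
Gla: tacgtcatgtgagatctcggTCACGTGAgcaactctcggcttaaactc
Atp6v1a: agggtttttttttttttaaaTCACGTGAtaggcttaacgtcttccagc
Atp6v0d1: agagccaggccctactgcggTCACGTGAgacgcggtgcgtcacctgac
Cln3: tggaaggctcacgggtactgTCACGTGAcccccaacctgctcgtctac
Mcoln1: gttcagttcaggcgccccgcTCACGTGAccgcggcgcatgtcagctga
Lamp1: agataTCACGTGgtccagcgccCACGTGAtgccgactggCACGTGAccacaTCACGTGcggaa

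In the order printed, the 6 genes with the palindrome differed by 0.56, 0.24, 0.22, 0.00, -0.27 and -0.57 on the log2 scale, and Ctsa by -2.02. Of these 7, 1 passed (Ctsa, lower). The 6 tested members with only the shorter TCACGTG ranged from -1.03 (Lgmn) to 0.06 (Lamp1), with a median of -0.41. The 22 with neither match ranged from -2.61 (Scarb2) to 0.74 (Gusb) apart from Ctss, which has only a bound (-2.59), with a median of -0.15. Among these 22, Ctsl and Ctsf hold the core CACGTG without the longer letters. Genes with and without TCACGTG thus covered overlapping ranges.

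**Figure D4:**
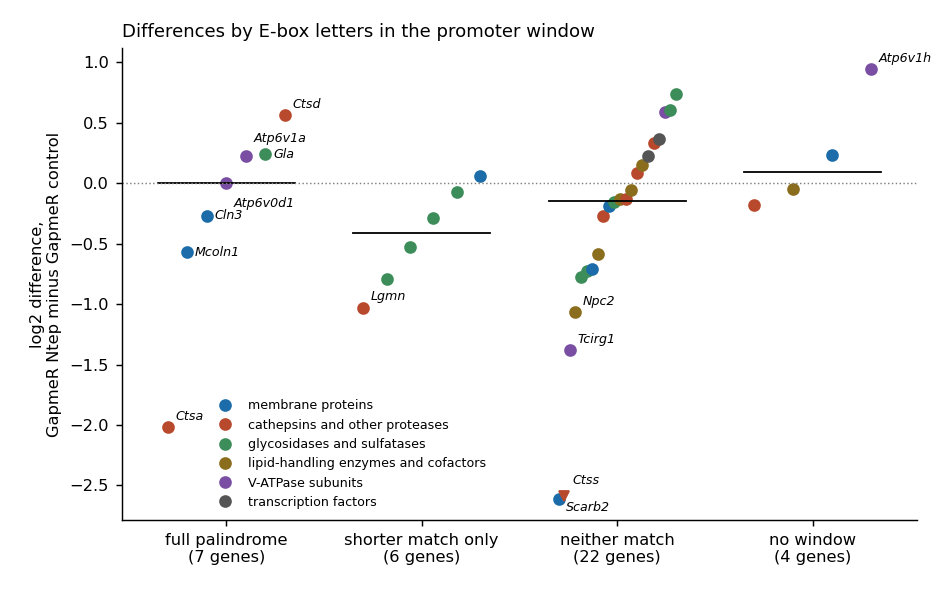
Log2 difference (vertical axis, GapmeR Ntep minus GapmeR control) of the tested lysosomal genes by the E-box letters in their promoter window, with a point per gene colored by role, a triangle for Ctss at its bound and a line at the median of each class. The 7 genes with the full palindrome spread from Ctsa at -2.02 to Ctsd at 0.56 around a median of 0.00. Ctss and Scarb2 are among the 22 genes with neither match, that is neither TCACGTGA nor TCACGTG.

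A further 91 lysosomal genes outside the 41 were read in the same way, and 87 were tested. Of these, 1 rose and 2 fell after adjustment (6% of all genes passed), and all 3 are membrane proteins. At an unadjusted p under 0.05, 18 were higher and 6 lower, where 12.9% and 15.1% of all genes were. At the limits of the study, 3 were higher (Cd68, Slc17a5 and Idua) and 2 lower, where 3.19% and 5.92% of all genes were. Cd68, a heavily glycosylated relative of the Lamp proteins that is widely used as a macrophage marker, read 11892, 11260 and 9404 on the GapmeR Ntep arrays and 5022, 4587 and 4380 on the control arrays. It was higher on every GapmeR Ntep array (1.21, adjusted p = 0.0287 by limma). Of the macrophage markers, Itgam (1.26), Cd14 (1.11) and Csf1r (3.19) also had higher values there (adjusted p of 0.0627 to 0.151 by limma). All 3 were well above background on 6 of 6 arrays. Csf1r overlapped between labels, with 1196 on GapmeR Ntep 3 and 1403 on GapmeR control 1. Aif1 (-1.28), Laptm5 (-0.78) and Lyz2 (-0.18) were lower, Laptm5 being well above background on 1 array and Lyz2 on 3. The part of these markers in the Cd68 difference was not tested. Itgam read 45777, 19443 and 30885 against 14655, 10652 and 12952. Idua read 48061, 20068 and 31844 against 14994, 11116 and 13111 (1.27, adjusted p = 0.0872 by limma). Slc17a5 read 45682, 19735 and 35955 against 13970, 9976 and 11138 (1.46, adjusted p = 0.0661 by limma). These 3 probes read nearly alike on every array, and why was not tested.

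Lmbrd1, which exports cobalamin from the lysosome, read 254.3, 527.2 and 309.4 against 1517, 1159 and 1260 (-1.91, adjusted p = 0.0334). Sidt2, a lysosomal protein linked to RNA uptake, read 4488, 4906 and 3825 against 9540, 8738 and 9512 (-1.08, adjusted p = 0.0326). Both were lower on every array labelled GapmeR Ntep. Without experiment 1, 0 of the other lysosomal genes passed after adjustment, where 3.34% of all genes did. In the paired fit 10 of the 87 tested passed, where 16% of all genes did.

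By group, the 26 other hydrolases and cofactors had a median of -0.20 and the 24 other membrane proteins of -0.06 (0.05 with 75th percentile scaling), each with members on both sides of 0. The 12 other V-ATPase subunits had a median of 0.38, with 10 above 0, and 0 passed after adjustment. At an unadjusted p under 0.05, 3 were higher (Atp6v0b at 0.71, Atp6v1d at 0.78 and Atp6v0a1 at 0.51). Of all genes, 12.9% were higher at that limit and 28% differed in either direction. The highest of them, Atp6v1b2 (2.03), rested on a single array, GapmeR Ntep 3, with 80447 where the other 5 arrays read 1616 to 2081.

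The 11 genes that sort enzymes to the lysosome had a median of 0.21, led by the mannose 6-phosphate receptor M6pr (0.56, adjusted p = 0.131). The 14 genes of nutrient signalling at the lysosome, which hold mTORC1 and its regulators, had a median of 0.20 with 12 above 0. None of the 14 passed by limma after adjustment. At an unadjusted p under 0.05, 5 were higher: Mtor (0.71), Flcn (0.75), Rragc (0.72), Lamtor3 (0.54) and Fnip1 (0.67). Of all genes, 12.9% were higher at that limit and 28% differed in either direction. Mtor and Rragc passed in the paired fit (adjusted p = 0.0492 and 0.0450). With 75th percentile scaling the medians of these groups were higher (0.49 for the pump, 0.26 for sorting and 0.33 for signalling), beside 0.15 for all genes.

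**Figure D5:**
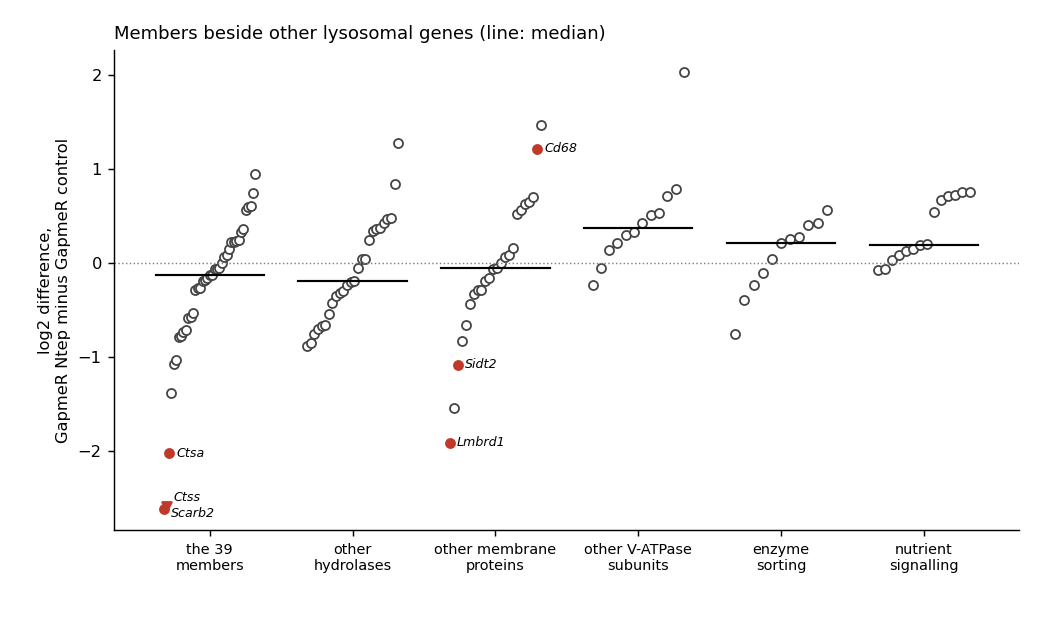
Log2 difference (vertical axis, GapmeR Ntep minus GapmeR control) of the 39 tested members beside 5 groups of other lysosomal genes, with a point per gene, a triangle for Ctss at its bound and a line at each median. Red symbols passed at an adjusted p under 0.05: Ctss, Scarb2 and Ctsa among the members, and Cd68, Sidt2 and Lmbrd1 among the other membrane proteins; the medians run from -0.20 (other hydrolases) to 0.38 (other V-ATPase subunits).

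The experiments differed in the median of the members, at 0.03, -0.06 and -0.31 in experiments 1 to 3, where the medians over all genes were -0.01, 0.02 and 0. The glycosidases and sulfatases were at -0.08, -0.13 and -0.40, and the cathepsins and other proteases at 0.08, -0.12 and -0.50 (over all arrays -0.18, and 0.05 with 75th percentile scaling). The V-ATPase members were at 0.39, 0.21 and 0.06. Ctss (at or near the floor after GapmeR Ntep), Ctsa (-2.54, -1.56 and -1.96) and Scarb2 (-3.50, -2.24 and -2.10) were lower in all 3 experiments.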

How the data were processed

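RNA of 3 cultures per GapmeR was measured on Agilent mouse arrays. Per array, the authors deposited linear intensities with background subtracted, as Feature Extraction 10.7.3.1 gave them. They also deposited a quantile-normalized table with a floor of 20, used as an alternative (87.8% of its values lay within 1% of those computed here). Spots of a probe were averaged, arrays quantile normalized and values under 20 set to 20. The 30990 probes whose brighter group averaged 50 or more were compared on the log2 scale in R 4.3.3, using limma 3.58.1, two-sided and unpaired, with Benjamini-Hochberg adjustment over all of them. The brightest tested probe stood for a gene. Cultures came from separate experiments.

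A supplementary list of the study gives the arrays of an experiment the same number and culture day, and residuals of same-numbered arrays correlated at 0.466, 0.300 and 0.254, those of other pairs at -0.327 to 0.126. The numbers therefore pair the arrays, and a fit with a replicate block was run beside the unpaired one (7 members called). An exact permutation test of 3 against 3 arrays cannot go below p = 0.1 and was not used.

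Members were given values on every array where they passed, had an unadjusted p under 0.05 without overlap, or had a difference of at least 0.5. Of the other lists, at most 5 genes each were named, by p, apart from Atp6v1b2 and Idua, which were added after their values were seen. Values on every array were added for the dimmer probes of Ctsa, Cln3 and Atp6ap1 and for Tfeb in the same way. Members and lists were chosen with earlier results of these data known. Probes are placed as in the files (mm9), and promoter sequences are those of RefSeq (GRCm38.p6). Whether probes lie in exons was not analysed here. The unpaired fit, the replicate block and the methods' t-test were tested first on simulated data that held no experiment effect. The fit with array weights was not tested so. Alternatives were 75th percentile scaling, normexp (offset 50), the authors' values, a floor of 1, other filters, outlier spots left out, the replicate block, the methods' t-test, array weights, the mean of all probes of a gene, each array left out, and, chosen after seeing the data, experiment 1 left out.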

Additional observations from a re-analysis of the deposited data

How the results depend on the processing

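Members called after adjustment were 3 with 75th percentile scaling, the authors' values, a floor of 1 or outlier spots left out, 5 with normexp (Neu1, higher, and Npc2, lower, added), 1 with no filter on dim probes, 4 with probes well above background on all arrays (Npc2, lower, and Gusb, higher, added and Ctss not tested), 4 with the mean of all probes (Npc2 added), 7 with the replicate block, 1 with the methods' t-test and 15 with array weights, a fit that called 37.5% of all genes. With 1 array left out they were 0 to 3, and members past a fold of 2 and p under 0.01 were 3 to 5. Array GapmeR control 2 or GapmeR Ntep 3 left out gave 0 calls over all genes. The other lysosomal genes called, 3 by the unpaired fit, were 6 with normexp, 7 with probes well above background on all arrays, 10 with the replicate block, 0 with the methods' t-test, 34 with array weights, 0 without experiment 1, 5 with the mean of all probes, and 0 to 5 with 1 array left out. From normexp to the mean of all probes, in that order, these settings called 10.2%, 12%, 16%, 1.12%, 37.5%, 3.34% and 8.79% of all genes. The median of the members stayed between -0.26 and -0.01. Named members kept their direction under every alternative run in which they were tested (Ctss was not tested with probes well above background on all arrays). The replicate block changed no call of a named member other than those of Npc2, Tcirg1, Lamp2 and Arsb. The brightest Gusb probe was the other one with normexp (0.07), without GapmeR Ntep 3 (0.05) or 1 (0.21) and without experiment 1 (0.18). Ctss was at -1.44 with normexp. What sets the counts apart was not tested. Depth here is signal over background: Ctss after GapmeR Ntep has only a bound, Ctsc and Ctsh were not measured above background, and the dimmer Ctsa probe, the dimmest Cln3 probe and Ctsf were measured on 1 of 3 GapmeR Ntep arrays.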
